A study of Mus musculus with 20 samples.

Results

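Apod, Apoe, Apoc1, Clu and Ptgds encode secreted lipid carriers, and their RNA levels are described here in the aged mouse intervertebral disc. They are 5 of the 51789 genes in the deposited table, found by symbol. The set was selected on measured values, because Apod stood among the genes that differed most between the tissues of the disc. The contrast of tissues is therefore given for Apod as a description, and for all 5 genes in vehicle-treated mice, with no test.

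RNA was sequenced from 2 tissues of BL6 mice aged 24 months: the nucleus pulposus (NP), which is the soft centre of the disc, and the annulus fibrosus (AF), the layered collagen ring that encloses it. All mice had weekly intraperitoneal injections from 18 months of age, for 6 months: vehicle mice received DMSO, and treated mice received MDL-800 in the same amount of DMSO, so that every group was exposed to DMSO. The series title ties the treatment to SIRT6, a sirtuin that removes acyl groups from histones. There were 20 libraries in 4 groups of 5, for each tissue with vehicle and with MDL-800, and they are named by the library numbers in the labels. The labels do not say whether libraries of a group are separate animals, so p-values measure only the spread between these libraries.

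Apolipoproteins coat lipid particles and hand them to receptors or to lipid-modifying enzymes. APOE binds receptors of the LDL receptor family, APOC1 is a small exchangeable apolipoprotein that hinders this uptake, and clusterin (Clu, also called apolipoprotein J) is an extracellular chaperone found on lipoprotein particles. APOD and PTGDS are not built like these: both are lipocalins, barrel-shaped proteins that hold small lipophilic molecules, and PTGDS also makes prostaglandin D2. Apod is a known marker of fibroblasts of connective tissue, and Apoe is abundant in macrophages and in many mesenchymal tissues.

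Values are scaled FPKM (fragments per kilobase of transcript, relative to the mapped fragments and further scaled between libraries), which can be compared between genes as levels per length. Depth is not stated in the table, and an estimate from the steps between low values gave 12.8M to 22.2M fragments per library. The NP marker T (brachyury) averaged 1400 in NP vehicle and 304 in AF vehicle. Of 7 AF markers, 6 were lower in NP in vehicle and 5 under MDL-800 (limma, adjusted p under 0.05), such as Tnmd with 1.11 in NP vehicle and 48.2 in AF vehicle. The AF marker Fmod did not separate the tissues that way, at 1000 and 703, and the AF marker sum overlapped between NP vehicle (779 to 1542) and AF vehicle (1146 to 2949). Of the 9 NP markers 8 could be tested, and 7 were higher and 1 was lower in NP in vehicle (limma, adjusted p under 0.05). Under MDL-800 6 were higher, 1 was lower and 1 did not pass. Noto averaged at most 0.0594 in any group and so did not mark the tissue here. Car12 went the other way, at 0.0467 in NP vehicle and 1.17 in AF vehicle, and at 0.0121 and 3.46 under MDL-800. The NP marker sum was 25620 to 30790 in NP vehicle and 2494 to 15090 in AF vehicle, where library 9 was the highest and the next was 7106. Fibroblast markers (9 genes) summed to 135 to 258 in NP vehicle and 2125 to 6348 in AF vehicle. Macrophage markers (10 genes) summed to 71.7 to 403 and 1440 to 2729. These are bulk tissues, so fewer cells of a type and less RNA per cell cannot be told apart.

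Apod was the member that separated the tissues most. In NP vehicle its level was 8.54, 6.71, 18.2, 1.14 and 14.0 in libraries 1, 2, 3, 5 and 6, and in AF vehicle it was 518, 247, 1516, 1864 and 990 in libraries 8, 9, 10, 12 and 13. Every AF library lay above every NP library, and 41.0% of the 16383 genes tested had no overlap between the tissues in vehicle. Under MDL-800 the NP libraries (15, 18, 19, 20 and 22) were at 14.7, 10.5, 3.93, 2.04 and 8.02, and the AF libraries (25, 27, 28, 29 and 30) at 631, 1028, 419, 965 and 473. The group means were 9.72 ± 6.60 (SD, n = 5) in NP vehicle, 1027 ± 673 in AF vehicle, 7.84 ± 5.08 in NP MDL-800 and 703 ± 280 in AF MDL-800. The mean was thus 106-fold higher in AF than in NP in vehicle, and 89.7-fold higher under MDL-800. By mean level Apod ranked 34 of 21780 protein-coding genes in AF vehicle and 79 in AF MDL-800, but in NP it ranked 6691 with vehicle and 7559 with MDL-800.

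**Figure D1:**
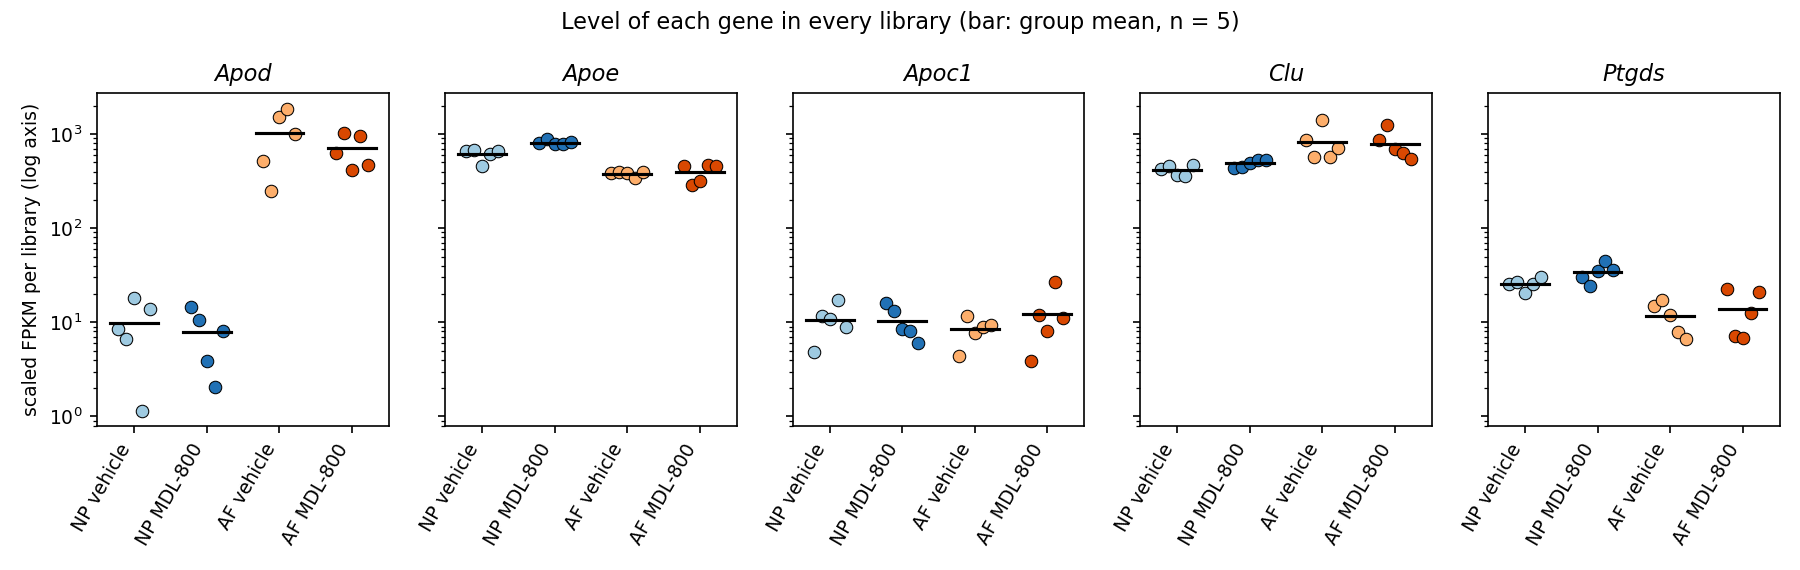
Scaled FPKM of the 5 genes in each of the 20 libraries, on a log axis shared by all panels, with points for libraries and a bar for the mean of each group of 5. Apod lies between 1.14 and 18.2 in the NP libraries and between 247 and 1864 in the AF libraries, while Apoc1 overlaps between all groups.

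Within a tissue, Apod was also the most uneven of the members in NP vehicle, where its highest library was 15.9 times its lowest. In AF vehicle, library 9 had the lowest Apod (247), the lowest fibroblast marker sum (2125) and the highest NP marker sum (15090). Without that library the difference between NP and AF in vehicle was -7.01 on the log2 scale, against -6.58 with it. Library 12 had the highest Apod (1864) with a fibroblast sum of 6018, but library 8, with the highest fibroblast sum of the group (6348), had only 518. The part of fibroblast content in the difference of Apod was not tested. In both treatments all 9 fibroblast markers tested were lower in NP (limma, Benjamini-Hochberg adjusted p under 0.05), as Dcn shows with 44.6 ± 35.2 in NP vehicle and 3230 ± 1150 in AF vehicle.

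**Figure D2:**
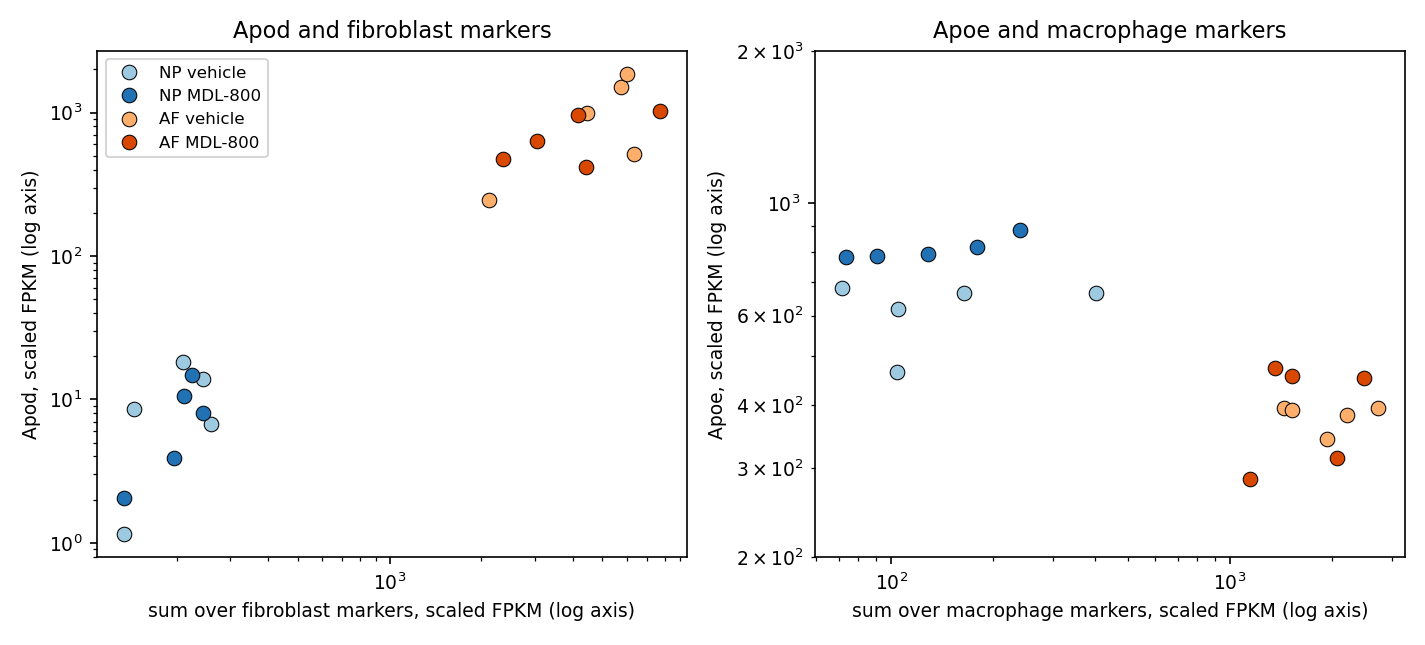
Left, Apod against the summed level of 9 fibroblast markers in each library; right, Apoe against the summed level of 10 macrophage markers; all axes are logarithmic and in scaled FPKM. AF libraries have the higher marker sums in both panels and all lie above the NP libraries for Apod; for Apoe they lie below the NP libraries of the same treatment, while AF MDL-800 library 29 (474) is above NP vehicle library 3 (464).

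Apod lies on chromosome 16 (GRCm38, 31296192 to 31314808, minus strand; ENSMUSG00000022548). Its upstream sequence is shown because Apod is the gene with the large difference between tissues, and that of Apoe because it is among the most abundant transcripts in both. Both run 250 bases up to the start of transcription, and for Ptgds a window of 30 bases around the only motif match, just before the RefSeq start, is shown. The sequences are from RefSeq (GRCm38.p6), where a table entry was found for 3 of the 5 members (Apod, Apoe and Ptgds).
Apod, chr16:31314809-31315058, minus strand: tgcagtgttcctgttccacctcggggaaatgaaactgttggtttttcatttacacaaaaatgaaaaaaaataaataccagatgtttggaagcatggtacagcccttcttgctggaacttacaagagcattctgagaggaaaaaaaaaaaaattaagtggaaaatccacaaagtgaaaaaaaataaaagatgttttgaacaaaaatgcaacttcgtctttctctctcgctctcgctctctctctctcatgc
Apoe, chr7:19699189-19699438, minus strand: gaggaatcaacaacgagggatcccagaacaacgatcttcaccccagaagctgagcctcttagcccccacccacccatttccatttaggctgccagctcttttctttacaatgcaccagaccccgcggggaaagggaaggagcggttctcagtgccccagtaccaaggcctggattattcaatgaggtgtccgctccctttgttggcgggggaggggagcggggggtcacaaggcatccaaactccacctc
Ptgds, chr2:25469766-25469795, minus strand: gaggccaagccTGACTCAtaaatagggggt
The Apod sequence is AT-rich, with 36.4% G and C, against 57.2% for Apoe, 58.4% for Ptgds and a median of 52.4% over 32817 promoters of 250 bases. Apoe has 3 starts in the table and the one farthest upstream was used. The 4 motifs below were searched on both strands. The GC box was searched as GGGCGG, which 32.7% of the promoters hold. The TATA box was searched as TATAAA, held by 12.4%. The CCAAT box, by its 5 letters, is in 33.8%. The AP-1 site was searched as TGANTCA, held by 6.8%. The only match in the 3 genes was TGACTCA at positions -35 to -29 from the Ptgds start, shown in capitals above within a 30-base window. That position is counted from the RefSeq start. GENCODE places the 5′ end of Ptgds farther upstream, so the match lies inside the gene as GENCODE gives it and not upstream of it. The last 93 of the 250 bases searched, this window included, run from the first base in a GENCODE exon of any gene to the RefSeq start. Whether each of these bases is in an exon was not checked.

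Apoe was among the most abundant transcripts of the disc, and it was higher in NP. In NP vehicle it measured 664, 680, 464, 619 and 665 in libraries 1, 2, 3, 5 and 6, and in AF vehicle 383, 395, 391, 342 and 395 in libraries 8, 9, 10, 12 and 13. No AF vehicle library reached the lowest NP vehicle library, and the means were 618 ± 89.6 and 381 ± 22.4 (SD, n = 5), a ratio of 1.62. Apoe ranked 89 of 21780 protein-coding genes in NP vehicle and 163 in AF vehicle. Macrophages are a known source of Apoe, and their 10 markers were all lower in NP, where Apoe was higher (limma, adjusted p under 0.05): C1qa averaged 3.40 in NP vehicle and 95.6 in AF vehicle. The part of macrophages in the level of Apoe was not tested.

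Under MDL-800 Apoe was again higher in NP, by 1.06 on the log2 scale. The NP libraries (15, 18, 19, 20 and 22) were at 795, 884, 788, 782 and 819, and the AF libraries (25, 27, 28, 29 and 30) at 457, 286, 315, 474 and 453. The groups did not overlap, with means of 814 ± 42.1 and 397 ± 89.0 and a ratio of 2.05. The 95% interval of the log2 difference was 0.72 to 1.41 (SE 0.16, limma, Benjamini-Hochberg adjusted p = 0.000164), and all 5 NP libraries lay above the AF libraries (two-sided exact permutation p = 0.0079; no smaller p can come from the 252 splits). The background is high here: 62.8% of 16383 genes passed an adjusted p of 0.05 under MDL-800, 25.6% higher and 37.2% lower in NP, and 49.1% had groups that did not overlap. In vehicle these shares were 55.7%, 21.8%, 33.9% and 41.0%.

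Apoe lies on chromosome 7 (GRCm38, 19696109 to 19699188, minus strand). Apoc1 lies 3448 bases from it on the same strand (19689481 to 19692660), but its levels overlapped between the tissues. Its level was 4.78, 11.7, 10.7, 17.1 and 8.94 in NP vehicle and 4.40, 11.6, 7.69, 8.95 and 9.44 in AF vehicle. Under MDL-800 it was 15.9, 13.2, 8.57, 8.17 and 6.10 in NP and 3.89, 12.0, 8.04, 26.6 and 11.2 in AF. All 4 groups overlapped, and their means ranged from 8.43 ± 2.66 in AF vehicle to 12.3 ± 8.57 in AF MDL-800. The difference between NP and AF under MDL-800 was -0.07 on the log2 scale, with a 95% interval of -0.97 to 0.82 (limma, Benjamini-Hochberg adjusted p = 0.886), so that a difference as large as that of Apod is outside the interval but one of the size of Clu is inside it. Apoc1 is also the member read least: its level stands for an estimated 27.0 to 177 fragments per library, against 6530 to 19500 for Apoe.

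Of the other protein-coding genes within 30000 bases of Apoe, none that could be tested passed as higher in NP under MDL-800. Apoc2, the cofactor of lipoprotein lipase, averaged 0.735 ± 0.588 in NP MDL-800 and 3.96 ± 2.10 in AF MDL-800, and was lower in NP by 1.44 on the log2 scale (limma, Benjamini-Hochberg adjusted p = 0.00429). Apoc4 stayed below 1 on average in every group and was not tested, and Gm44805, which overlaps Apoc2 and Apoc4, is listed at 0 in all libraries. Tomm40, a subunit of the mitochondrial import pore, averaged 23.7 ± 1.20 in NP MDL-800 and 18.4 ± 5.92 in AF MDL-800, and the difference of 0.42 did not pass (limma, adjusted p = 0.117). Nectin2, an adhesion molecule, averaged 5.96 and 5.05 there and did not pass either (limma, adjusted p = 0.396).

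**Figure D3:**
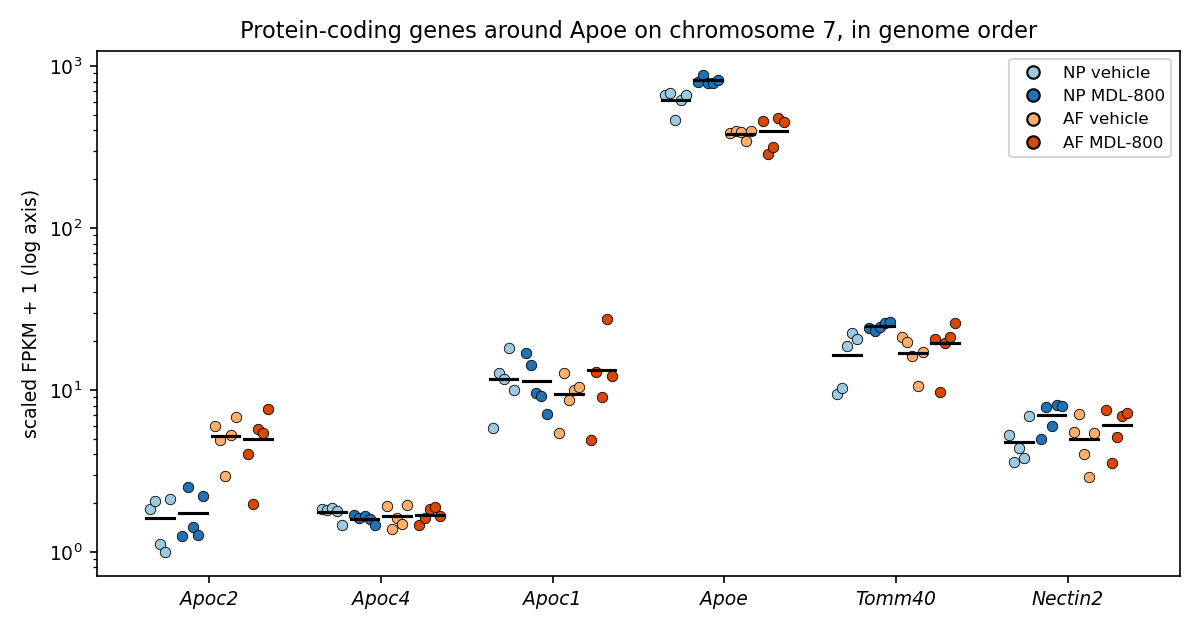
Scaled FPKM plus 1, on a log axis, of 6 protein-coding genes around Apoe in genome order, with a point per library and a bar for the mean of each group of 5. Apoe stands above its neighbours in all 20 libraries and is higher in NP, Apoc2 is higher in AF, and Apoc1 overlaps between groups.

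Clu was abundant in both tissues and higher in AF. Its level was 427, 454, 364, 359 and 468 in NP vehicle and 859, 572, 1420, 570 and 714 in AF vehicle. The groups did not overlap, and the means were 414 ± 50.5 and 827 ± 352 (SD, n = 5), 2.0-fold higher in AF. Under MDL-800 the NP libraries were at 434, 451, 498, 525 and 534 and the AF libraries at 855, 1247, 701, 625 and 538. The highest NP library (534) came within a few units of the lowest AF library (538). The means were 488 ± 44.4 and 793 ± 279, and the log2 difference of NP minus AF was -0.64 with a 95% interval of -1.09 to -0.19 (SE 0.21, limma, Benjamini-Hochberg adjusted p = 0.0187, two-sided exact permutation p = 0.0079). This call was lost with scaling to the upper quartile (-0.44, limma, adjusted p = 0.0991). Clu lies on chromosome 14 (65968483 to 65981547, plus strand).

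The SD of Clu was smaller in the NP groups than in the AF groups, at 44.4 and 50.5 against 279 and 352. In AF vehicle library 10 was the highest for Clu (1420) and had the second highest Apod (1516), but library 12, the highest for Apod, was the lowest for Clu (570). In AF MDL-800, library 27 was the highest for both, at 1247 and 1028, and it had the largest fibroblast marker sum of the series, 7717. Nerve sheath cells also make Clu and Apod. Their 8 markers summed to 284 to 1609 in AF vehicle and 255 to 312 in NP vehicle, and to 251 to 568 and 246 to 300 under MDL-800, with overlapping groups in both treatments; the part of these cells in the result was not tested.

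Ptgds, at a lower level, was higher in NP, as Apoe was. It measured 25.8, 26.7, 20.4, 25.8 and 30.0 in NP vehicle and 15.1, 17.2, 11.9, 7.86 and 6.66 in AF vehicle, without overlap. The means were 25.7 ± 3.46 and 11.8 ± 4.53 (SD, n = 5), a ratio of 2.19. Under MDL-800 the NP libraries were at 30.4, 24.3, 34.9, 44.8 and 36.3 and the AF libraries at 22.4, 7.11, 6.81, 12.7 and 20.8. The lowest NP library (24.3) was above the highest AF library (22.4), and the means were 34.1 ± 7.59 and 14.0 ± 7.37. NP was higher by 1.36 on the log2 scale with a 95% interval of 0.64 to 2.07 (SE 0.32, limma, Benjamini-Hochberg adjusted p = 0.00372, exact two-sided permutation p = 0.0079). Ptgds is a marker of meninges, which lie close to the disc. The sum over 7 meningeal markers was 0.624 to 1.92 in NP MDL-800 and 12.1 to 22.8 in AF MDL-800. Slc22a6 was listed at 0 in all NP vehicle libraries. Slc6a13, Slc47a1, Zic1 and Aldh1a2 stayed below 1 in every NP library and passed the filter on low values only through AF. The meningeal markers are therefore described here with no test. The part of meningeal tissue in the Ptgds result was not tested. Ptgds lies on chromosome 2 (25466709 to 25470046, minus strand).

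The order of the 5 levels therefore differed between tissues. In NP vehicle it was Apoe, Clu, Ptgds, Apoc1 and Apod, with overlapping ranges for Apoe with Clu and for Apoc1 with Apod. The order was the same in NP with MDL-800, where Apoe and Clu did not overlap. In AF vehicle it was Apod, Clu, Apoe, Ptgds and Apoc1, where Apod overlapped Clu and Ptgds overlapped Apoc1. In AF MDL-800 Clu came before Apod, with overlapping ranges, and Apod overlapped Apoe as well.

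The next question was whether MDL-800 changed these genes within a tissue. No member passed the threshold in NP, where 41 of 16383 genes did (0.250%), a count that ran from 2 to 189 when a library was left out (2 without NP vehicle library 3 or NP MDL-800 library 22, 189 without NP vehicle library 6). Apoe came nearest. Its NP libraries were at 464 to 680 with vehicle and at 782 to 884 with MDL-800, so all 5 treated libraries lay above all 5 vehicle libraries. Groups without overlap were found for 738 genes (4.50%) in this comparison. The log2 difference was 0.41, with a 95% interval of 0.15 to 0.66 (SE 0.12), a ratio of means of 1.32 and a limma Benjamini-Hochberg adjusted p of 0.142. The exact two-sided permutation p of this gene alone, not adjusted, was 0.0079.

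NP libraries of the 2 treatments also differed in how levels depended on base composition. The slope of the log2 deviation of genes on their GC content was -0.285 to -0.00670 per 10 points with vehicle and 0.0228 to 0.0885 with MDL-800, without overlap. The vehicle slopes were uneven: -0.285 and -0.278 in libraries 1 and 2, and -0.0256, -0.0495 and -0.00670 in libraries 3, 5 and 6. Apoe was 664 and 680 in libraries 1 and 2, and 464, 619 and 665 in libraries 3, 5 and 6. Apoe transcripts have 59.5% G and C, Ptgds 56.4%, Clu 55.6%, Apoc1 54.9% and Apod 47.8%. With the GC trend removed, the difference of Apoe was 0.21 in place of 0.41 (limma, adjusted p = 0.640), that of Clu 0.12 in place of 0.24 and that of Ptgds 0.24 in place of 0.38. The part of base composition in these differences was not tested. The macrophage sum of NP libraries overlapped between vehicle (71.7 to 403) and MDL-800 (73.6 to 241), and so did the NP marker sum, at 25620 to 30790 and 27930 to 32850. That NP sum is mostly Car3, which averaged 20300 with vehicle and 22400 with MDL-800. T was higher with MDL-800 without overlap (1190 to 1700 and 1780 to 2330), as was Krt8 (750 to 883 and 926 to 1240). Krt19 was too (640 to 1440 and 1690 to 2350), and the other NP markers overlapped. None of the 8 NP markers tested passed (limma, adjusted p under 0.05), with 3 at an unadjusted p under 0.05.

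For Clu in NP, 3 of the 5 treated libraries lay above all vehicle libraries, and the log2 difference of 0.24 had an interval of 0.01 to 0.47 (limma, Benjamini-Hochberg adjusted p = 0.334). For Ptgds, 4 of the 5 treated libraries lay above all vehicle libraries, with a difference of 0.38 and an interval of 0.04 to 0.71 (limma, adjusted p = 0.298). Intervals that exclude 0 are not rare in this comparison. The unadjusted limma p was under 0.05 for Apoe, Clu and Ptgds, and for 2311 of all 16383 genes (14.1%). Apod differed by -0.18, but its interval ran from -1.53 to 1.17, and Apoc1 by -0.01, from -0.70 to 0.68. For these last 2 genes a change of more than 1.5-fold in either direction is inside the interval.

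In AF no gene passed with limma (0% of 16383), although 270 had an unadjusted p under 0.05, and 37 genes (0.226%) had groups without overlap. Apod was 247 to 1864 with vehicle and 419 to 1028 with MDL-800, a log2 difference of -0.31 with an interval of -1.48 to 0.87. The estimates were 0.03 for Apoe (-0.34 to 0.40), 0.33 for Apoc1 (-0.56 to 1.22), -0.04 for Clu (-0.71 to 0.63) and 0.16 for Ptgds (-0.66 to 0.97), each with a limma adjusted p of 1.0. All 5 genes overlapped between the AF groups. The difference between the treatment effects in NP and AF was tested in a single fit of the 4 groups: 0% of genes passed (611 at an unadjusted p under 0.05), and for Apoe the NP effect was larger by 0.38, with an interval of -0.04 to 0.79 (limma, adjusted p = 1.00). The other 4 estimates were 0.13 for Apod, -0.34 for Apoc1, 0.28 for Clu and 0.22 for Ptgds, and each interval included 0.

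**Figure D4:**
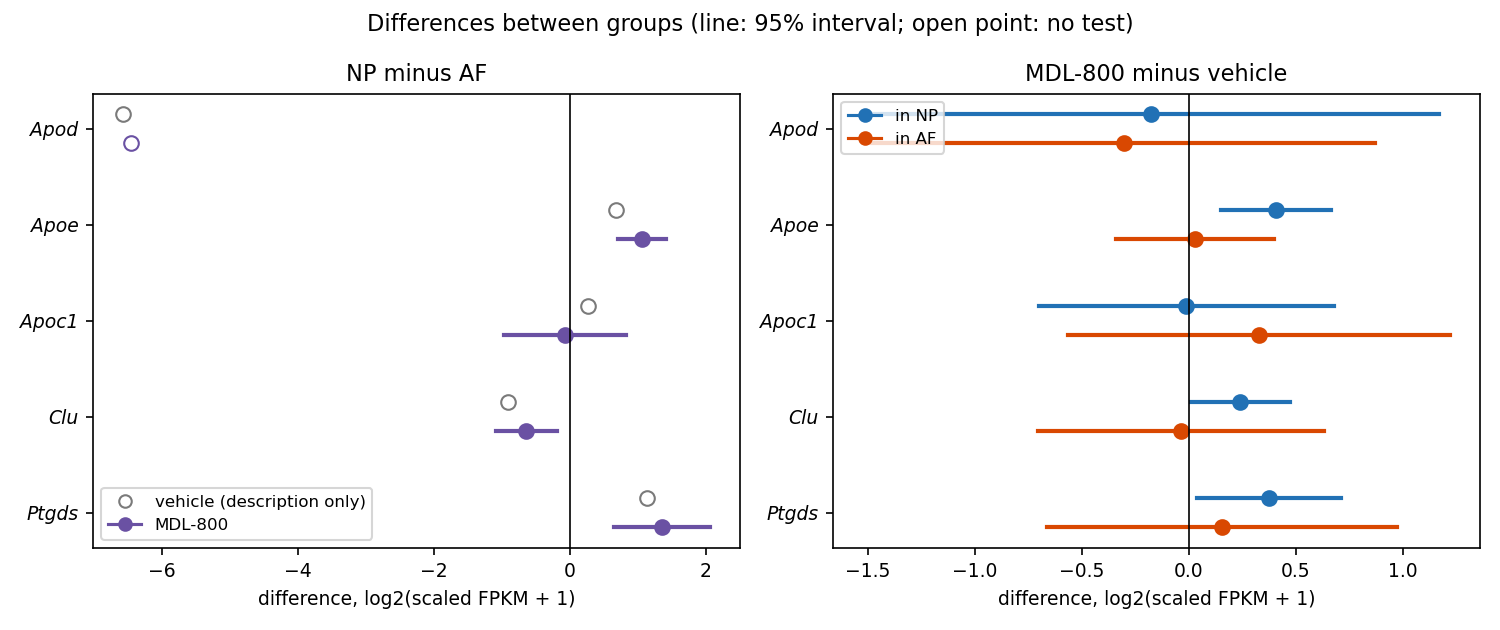
Differences of the 5 genes on the log2(scaled FPKM + 1) scale, NP minus AF on the left and MDL-800 minus vehicle on the right; lines are 95% intervals from limma with 5 libraries per group, and open points have no test. Under MDL-800 the NP minus AF intervals of Apoe, Clu and Ptgds exclude 0 and that of Apoc1 does not. All AF treatment intervals include 0.

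Genes that work with these carriers were mostly lower in NP. In 6 lists of related genes, 67 of 91 genes could be tested, and under MDL-800 43 of them were lower in NP and 17 higher (limma, adjusted p under 0.05). That is 64.2% and 25.4%, where all tested genes gave 37.2% and 25.6%. The median log2 difference was -0.97 over the 67 genes and -0.08 over all 16383. In vehicle 41 were lower and 13 higher. None of the 67 passed in either treatment comparison or in the test of the difference between them, with 5, 4 and 4 at an unadjusted p under 0.05.

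Of 10 other apolipoproteins tested, 7 were lower in NP under MDL-800, 2 were higher and 1 did not pass, with a median of -1.003. Apol11b averaged 2.68 ± 2.58 in NP and 39.7 ± 18.0 in AF, and Apol6 0.471 and 7.53. The 2 that were higher, Apol9a (57.8 and 14.8) and Apol9b (25.5 and 7.24), are near-identical copies, so their separate values are uncertain. Both are known as interferon-induced genes.

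Of 14 lipoprotein receptors and their partners, 9 were lower in NP, 4 were higher and 1 did not pass, with a median of -0.94. Tyrobp, the adaptor of the APOE receptor TREM2 in macrophages, was at 14.9 ± 10.2 in NP and 270 ± 127 in AF, and Stab1, a scavenger receptor of macrophages and sinusoidal endothelium, at 1.03 and 12.9. Lrp1, which takes up APOE particles, went the other way with 294 ± 38.4 and 146 ± 34.5. Bsg (basigin), a partner of monocarboxylate transporters, was at 1024 ± 85.0 in NP and 401 ± 93.8 in AF. All 10 macrophage markers tested were lower in NP under MDL-800, and the part of macrophages in the lower Tyrobp and Stab1 was not tested.

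Of 15 genes of lipid efflux and lipoprotein remodelling, 8 were lower in NP, 5 were higher and 2 did not pass, with a median of -0.52. Lpl (lipoprotein lipase) was at 7.38 ± 1.10 in NP and 56.4 ± 32.1 in AF, and Gpihbp1, its anchor on capillary endothelium, at 0.422 and 12.0. Nr1h2, the lipid-sensing receptor LXR beta, was higher in NP with 59.3 ± 3.56 against 27.4 ± 8.72, and so was Npc1, the lysosomal cholesterol exporter, with 43.7 ± 7.08 against 21.5 ± 4.36. Under MDL-800 the fat marker sum had a median of 6.56 in NP and 223 in AF (153 to 858), without overlap, and the endothelial sum was 1.69 to 8.27 in NP and 57.6 to 100.1 in AF; their part was not tested.

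Among 10 other lipocalins and secreted lipid binders, 5 were lower in NP, 3 were higher and 2 did not pass, with a median of -0.49. Lcn2 (lipocalin 2), an iron-siderophore carrier made by neutrophils and inflamed tissue, was at 88.7 ± 68.6 in NP and 1132 ± 776 in AF, the same direction as the lipocalin Apod. Fabp4, the fatty acid carrier of adipocytes, was at 2.90 and 96.4. Rbp4, the retinol carrier and also a lipocalin, was higher in NP with 98.5 ± 20.8 against 67.1 ± 19.9, as was Azgp1 with 36.3 and 15.6.

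In the prostaglandin D2 list, 8 of 10 tested genes were lower in NP, 1 was higher and 1 did not pass, with a median of -1.56. The gene that was higher was Ptgs1 (cyclooxygenase 1, which makes the substrate of PTGDS), with 746 ± 51.9 in NP and 160 ± 83.0 in AF, a ratio of 4.67. Ptgs1 and Ptgds were therefore both higher in NP, while Ptgis, the prostacyclin synthase that uses the same substrate, was at 4.05 ± 1.22 in NP and 72.6 ± 9.33 in AF. Hpgd, which inactivates prostaglandins, was at 1.70 and 24.9.

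Of 8 chaperones and complement regulators linked to clusterin, 6 were lower in NP, 2 were higher and none missed the threshold, with a median of -0.80. C7, a part of the membrane attack complex that clusterin inhibits, was at 0.134 ± 0.149 in NP and 11.7 ± 8.72 in AF. The small heat shock proteins went the other way: Hspb1 was at 549 ± 145 and 136 ± 56.0, and Cryab at 417 ± 38.1 and 255 ± 125. Hspb1 and Nr1h2 also had the smallest p of the 67 genes for MDL-800 in NP, with differences of 0.88 and 0.87, but neither passed (limma, adjusted p = 0.157 and 0.159). In AF the smallest were Fabp5 (-0.46) and Lipc (0.66), both with a limma adjusted p of 1.0. For the difference between the tissues they were Lipc (-0.80) and Cd59a (-0.45), with a limma adjusted p of 1.00 each.

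**Figure D5:**
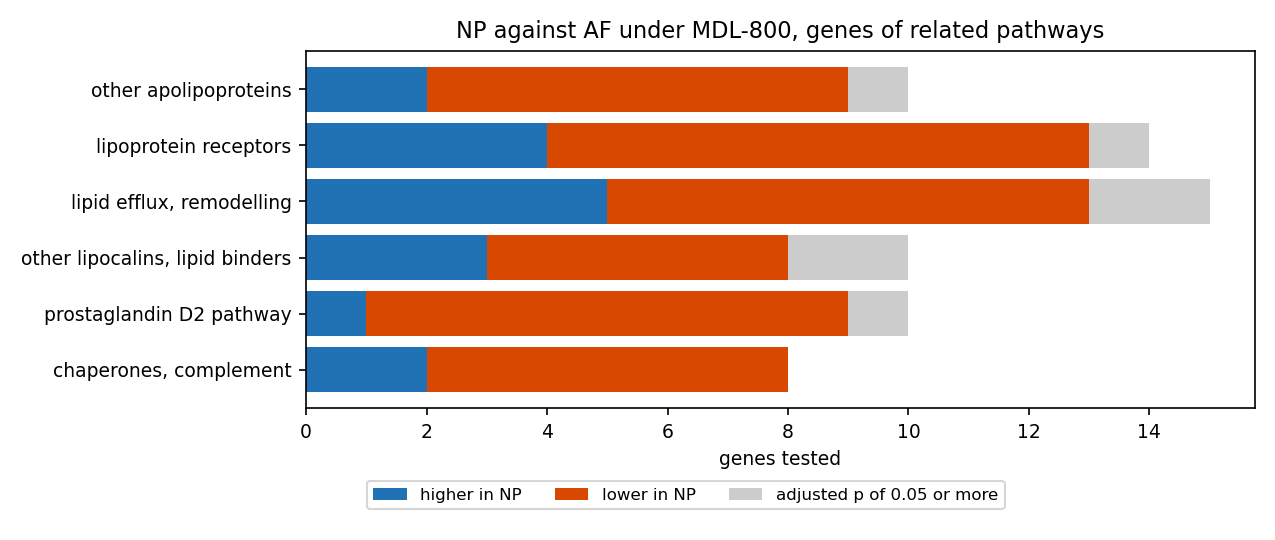
Number of genes tested in each of the 6 lists that were higher in NP, lower in NP or not past an adjusted p of 0.05 (limma) in NP against AF under MDL-800. Lower calls outnumber higher calls in all 6 lists, by 8 to 1 in the prostaglandin D2 list and by 5 to 3 among the lipocalins.

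The genes whose levels ran most like each member were searched among 9956 protein-coding genes over the 20 libraries, by Pearson's r of log2 values after the group means were subtracted. These are descriptions with no test, and libraries share depth and base composition. For Apod they were Serping1 (r = 0.90), Clec3b (0.84) and Efemp1 (0.83). Serping1, the C1 inhibitor, averaged 3.93 in NP vehicle and 274 in AF vehicle, and Clec3b (tetranectin) 0.677 and 41.4, so both also separated the tissues as Apod did. For Apoe they were Gstm1 (0.87), Rere (0.75) and Tecr (0.74), and Gstm1, a glutathione transferase, averaged 395 and 490 in NP vehicle and MDL-800 and 212 and 223 in AF.

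For Clu they included Ogfod3 (0.87) and Dmkn (0.83). Dmkn averaged 8.98 in NP vehicle and 63.4 in AF vehicle, and Ogfod3 15.7 and 16.5. For Ptgds they were Acyp1 (0.91), 1500009C09Rik (0.90) and Arl2 (0.89). For Apoc1 they were Msantd3 (0.85), Psmd4 (0.79) and Mrpl37 (0.77). Without subtraction of the group means the 2 highest were Serping1 and Clec3b for Apod (both 0.99), Gstm1 (0.98) and Sik1 (0.95) for Apoe, and Bmp6 (0.89) and Col8a2 (0.88) for Clu. They were Arl2 and Arhgef16 for Ptgds (both 0.95) and Phykpl (0.69) and Mad2l2 (0.68) for Apoc1.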

How the data were processed

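Per the labels' protocols, NP and AF were dissected under a microscope and RNA was column-extracted. Stranded total RNA libraries were made after ribosomal depletion from 50 ng with 14 PCR cycles. The authors deposited FPKM values rounded to 2 decimals. Per the submitters' processing notes, STAR 2.7.11b and mm10 were used; the counting program and annotation are not given in the sources used here.

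FPKM values were divided by median-ratio factors of 0.933 to 1.06, from 11308 genes that reached 1 FPKM in each of the 20 libraries, filtered at 1 FPKM in at least 5 libraries (16383 genes; all 5 members passed) and tested as log2(value + 1). This scale understates changes of low genes. A gene near 0 in NP could pass this filter through AF libraries alone, so its lower call in NP is no independent support. Pairs of groups were compared two-sided with limma 3.58.1 (R 4.3.3; eBayes with trend), with Benjamini-Hochberg adjustment over all genes; the difference between treatment effects came from a fit of all 4 groups. The fit was tested on simulated data. Depth was estimated from 6791 single-exon genes, of which 69.9% to 76.0% of low values fell on steps of 1 fragment within 0.006 FPKM, against 8.88% to 16.0% with no steps. Coordinates and GC content are from GENCODE M21 (GRCm38, the same assembly as mm10), which holds 51596 of the identifiers.

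Members and lists were chosen with earlier results of these data known. Named list genes are the 2 largest called rises and falls of each list at 5 scaled FPKM or more in the higher group, or the 2 smallest p in a treatment comparison. Some genes that this rule or the search for similar genes names are not reported here. Alternatives were other scalings, filters, pseudocounts and fits, removal of the GC trend, and leaving out each library. Marker lists for spinal cord, skeletal muscle, red blood cells and bone were also summed. In vehicle, muscle markers summed to 10.2 to 1050 in NP and 866.5 to 7733 in AF. Red blood cell markers summed to 44.2 to 177 and 635 to 2074, and bone markers to 10.2 to 94.5 and 253 to 1169. The bone sum in AF MDL-800 was 857.5 to 2092. Spinal cord markers summed to 0.103 to 0.740 in NP vehicle and 3.90 to 15.55 in AF vehicle. The part of these tissues in the results was not tested.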

Additional observations from a re-analysis of the deposited data

Results flagged for a closer look

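Apoe in NP vehicle had 1 library apart from the others: library 3 was at 463.5, while the other 4 were between 619 and 680. The gap to the nearest library was 0.718 of the range of the group, above the critical value of 0.710 for 5 libraries. That library also had the highest skeletal muscle marker sum of its group, 1050 against 10.2 to 110. Without it the Apoe difference between MDL-800 and vehicle in NP was 0.31 (limma, adjusted p = 0.150), against 0.41 with it.

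Apoe in AF vehicle had library 12 at 341.9, below the other 4 at 383 to 395, with a gap of 0.766 of the range. The same library had the lowest slope on GC content of its group, -0.238 per 10 points, where the others were between 0.0302 and 0.1004, and the highest Apod. It also had the highest skeletal muscle marker sum of its group, 7733 against 866.5 to 4018. In AF MDL-800, library 29 had the highest muscle sum (8371) together with the highest Apoe of its group (474). The part of muscle in the level of Apoe was not tested. In total 20 groups of 5 were examined, and chance alone flags about 1 in 20.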

How the results depend on the processing

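Of 650 values recomputed under other settings, 627 were counted as unchanged. These include the turned signs without a call that are listed below. Of the other 23, 20 moved, 1 gained and 2 lost a call. The Apoe difference for MDL-800 in NP (0.41) passed only by the exact permutation test of that gene alone (p = 0.007937, unadjusted). Its unadjusted limma p was 0.004987, so the gain reflects the lack of adjustment and not the choice of test. The adjusted limma p ran from 0.108 to 0.640. The number of genes called in that comparison was 41, and it was 18 without scaling, 70 with quantile normalization, 7 with no filter, 81 with a filter of 5 FPKM, 18 without the variance trend, 4 in a fit of all groups, and 2 to 189 with a library left out (2 without NP vehicle 3 or NP MDL-800 22, 189 without NP vehicle 6). In AF, and for the difference between tissues, the count was 0 and became 0 to 1 with a library left out. Clu under MDL-800 lost its call with upper quartile scaling (-0.44, limma adjusted p = 0.0991), and Apoe in vehicle moved from 0.69 to 0.87. The deposited column names hold numbers shared by some NP and AF libraries, of unstated meaning; their deviations correlated at -0.178 to 0.285, not above 0.1 in every pair, so they were not treated as pairs. With that number as a replicate block, added after the data were seen, Clu under MDL-800 was -0.58 (limma adjusted p = 0.173) on 3 shared numbers; 7858 genes were called in place of 10290, and 8783 in place of 9127 in vehicle. Signs turned, always without a call, for Apod (3 settings), Apoc1 (6) in NP, Apoe (6), Clu (3) and Ptgds (3) in AF, for Apod in the difference between tissues (6) and for Apoc1 in NP against AF under MDL-800 (4). Depth limits Apoc1 most, at 27.0 to 177 estimated fragments.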

Other observations

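After subtraction of group means, Pearson's r between members over the 20 libraries was highest for Apoe with Ptgds (0.62), the pair that was higher in NP, and lowest for Apod with Ptgds (-0.42). Apoe and its neighbour Apoc1 had an r of 0.02, and Apod and Clu, both higher in AF, one of 0.23. The libraries share differences in base composition and tissue makeup, and these values are descriptions with no test.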
